A study of Homo sapiens with 12 samples.

Results

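The 33 genes described here encode the enzymes that make nucleotides and the folate one-carbon enzymes that feed them. They are listed by gene name, with no measured value in the rule, but were chosen with earlier results of these data known. All 33 were found among the 25435 gene symbols of the deposited count table and passed the filter on low counts, as did 13365 genes in all. By role they were 8 genes of deoxynucleotide supply, 11 of de novo purine synthesis, 4 of de novo pyrimidine synthesis, 5 of folate one-carbon metabolism, and 5 of salvage or nucleotide kinase activity. RNA was sequenced from 12 libraries of LMSU, a human gastric cancer cell line labelled as carrying mutant p53 R175H and grown in Ham's F-10 medium, in 6 groups of 2. The knockout arm, labelled as without doxycycline, held a knockout control (GFP_V2, labelled as having the mutant p53) and a p53 knockout (GFP_sg-1, labelled as lacking it). The knockdown arm, labelled as with doxycycline in all 8 libraries, held a scramble hairpin and a vector group, both labelled as having the mutant p53, and p53 shRNA 1 and p53 shRNA 2, both labelled as lacking it. The labels name 1 guide construct, give no time of doxycycline treatment, and leave it unsaid whether lines were clones or pools and whether both libraries of 1 group are separate cultures. The p-values therefore measure only the spread between these libraries, which may be technical.

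A dividing cell must build purine and pyrimidine nucleotides from amino acids, carbon dioxide and folate-borne carbon units, or recover them from bases and nucleosides by salvage. Ribonucleotide reductase then turns ribonucleotides into the deoxynucleotides used for DNA synthesis, and thymidylate synthase takes its carbon from a folate. Serine is the main carbon donor, through serine hydroxymethyltransferases and folate dehydrogenases that exist as separate cytosolic and mitochondrial enzymes. Transcripts of many of these enzymes are known to rise with cell proliferation and the S phase, and those of the mitochondrial folate branch are known targets of the amino acid stress factor ATF4.

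Library totals were 9738094 to 16823246 counts, and each member's level is given as CPM (counts divided by the library total and put on a common scale) with edgeR's TMM factors. CPM is not divided by gene length, so levels are compared between groups and never between genes. A gene was called where edgeR's quasi-likelihood test on all 12 libraries gave a Benjamini-Hochberg adjusted p below 0.05 over the 13365 genes. The median absolute difference between the 2 libraries of a group over the members was 0.22 on the log2 scale in the knockout control, 0.12 in the knockout, and 0.034 to 0.078 in the other groups. Of the labelled tissue's markers, 0 of 8 gastric genes were tested (7 matched, with a summed level of 0.203 to 0.923 CPM), and EPCAM, CDH1 and KRT19 were at or near 0, while KRT8 and KRT18 were present. All 8 fibroblast markers were tested, with a summed level of 3061 to 3920 CPM without doxycycline and 17579 to 21890 CPM with it. Of the blood markers, CD3E was at 0 in every library, PTPRC reached at most 0.269 CPM, and CD68 was tested.

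The members' levels separated the arms before they separated any p53 comparison. In 24 of the 33 members, all 4 libraries without doxycycline lay above all 8 libraries with it, in 3 members (GMPS, IMPDH2 and TYMP) they lay below, and in 6 they overlapped, beside 27.2% of all genes above and 25.5% below. Thymidylate synthase (TYMS) was at 221 to 259.7 CPM without doxycycline and 25.4 to 64.2 CPM with it. CTP synthase 1 (CTPS1), which makes CTP from UTP, was at 125 to 146 CPM without doxycycline and 16.5 to 27.1 CPM with it. The range of each of these genes without doxycycline began well above the highest level reached with it.

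**Figure D1:**
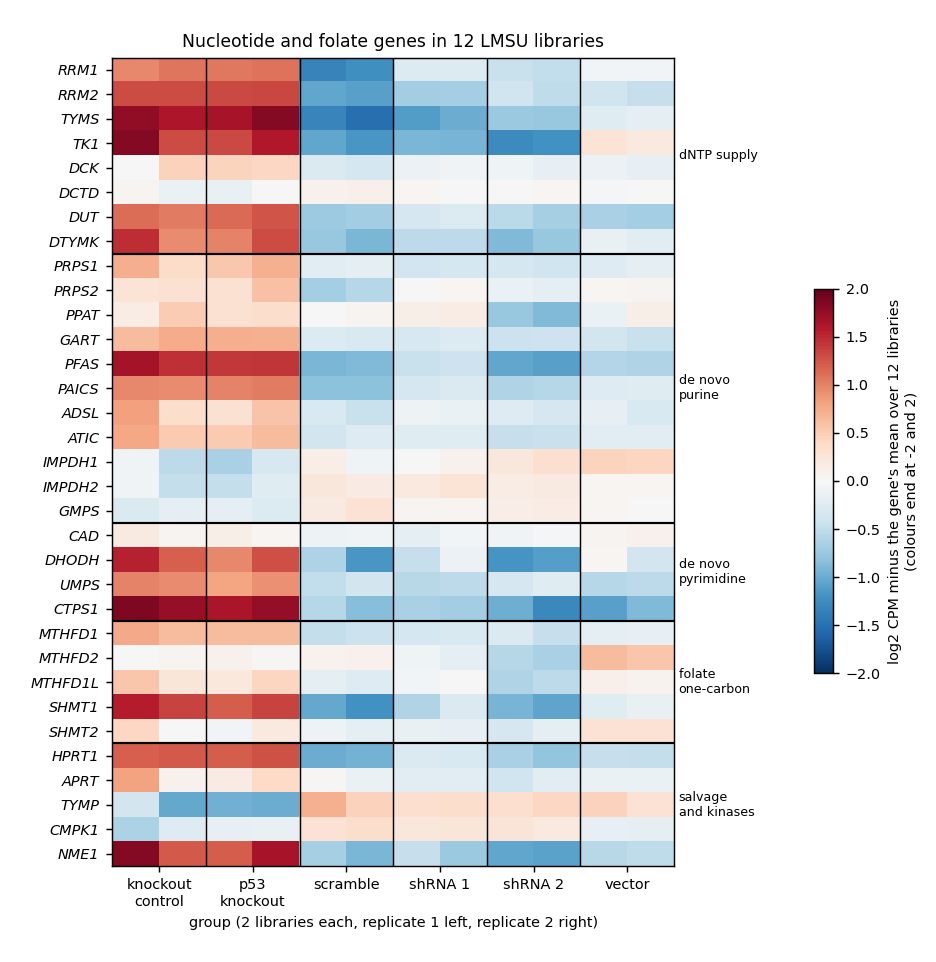
Level of each of the 33 members (rows, grouped by role) in each of the 12 libraries (columns, by group), as its log2 TMM-scaled CPM minus the gene's mean log2 level over the 12 libraries, with colours ending at -2 and 2. Most members are high in the 4 libraries without doxycycline and low in the other 8, while GMPS, IMPDH2 and TYMP run the other way.

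The knockout control was therefore compared with the mean of scramble and vector, a comparison added after the values were seen. Of the 33 members, 24 were called higher and 6 lower in the knockout control, against 67.7% of all genes tested (34.8% higher and 33% lower). The members' median log2 difference was 0.92, and that of all genes was 0.02. CTPS1 was 2.64 higher on the log2 scale in the knockout control (SE 0.10, adjusted p = 3.0e-09). TYMS was 2.5 higher (SE 0.085, adjusted p = 1.2e-09), and PFAS, a de novo purine enzyme, was 2.31 higher (SE 0.075, adjusted p = 9.3e-10). TYMP, which encodes the thymidine-degrading thymidine phosphorylase, had a difference of -1.13 (SE 0.16, adjusted p = 5.5e-05), with 9.87 to 15.6 CPM in the 4 libraries without doxycycline and 24.6 to 32.9 CPM in the 8 with it. The other 5 members called lower were GMPS, IMPDH1, IMPDH2, MTHFD2 and CMPK1, and the 3 not called were CAD, SHMT2 and DCTD.

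Genes of DNA replication, a list of 24 with no member in it, were higher in the knockout control for 24 of 24 (median 2.89), beside the lower fibroblast markers given above. The part of cell division or cell state in the members' difference was not tested. The arms also differ in doxycycline, constructs and control, and these cannot be told apart. In such bulk libraries, fewer cycling cells and less RNA per cell cannot be told apart either.

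Between the p53 knockout and its control, 0 of the 33 members were called. Log2 differences between knockout and its control ran from -0.32 (TYMP) to 0.28 (CMPK1), with a median of -0.06 against -0.01 for all genes, of which 0.015% were called. DESeq2 and limma-voom also called 0 members, and 1 member, CMPK1, had an unadjusted edgeR p below 0.05 (adjusted p = 0.73). The standard errors of the 33 differences were 0.073 to 0.19, with a median of 0.11. They rest on a spread shared by all 12 libraries, with a biological coefficient of variation of 9.55%. In the 4 libraries without doxycycline alone it was 15.6%. Fitted on those 4, the standard errors ran from 0.13 (PAICS) to 0.24 (NME1), with 0 members called, so the shared fit overstates the precision here. Both knockout libraries lay above both control libraries in 4 members and below them in 3, beside 12% and 11.2% of all genes.

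The S phase genes RRM1, RRM2 and TK1 show how these libraries lay. RRM1, the large subunit of ribonucleotide reductase, was at 449.7 and 482 CPM in the control and 479.5 and 489.9 CPM in the knockout. RRM2, the small subunit, was at 282 and 282 CPM in the control and 285 and 289 CPM in the knockout. For TK1, cytosolic thymidine kinase, the control libraries were at 359 and 250.1 CPM and the knockout libraries at 250.4 and 305 CPM, so the 2 control libraries spanned both knockout libraries.

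**Figure D2:**
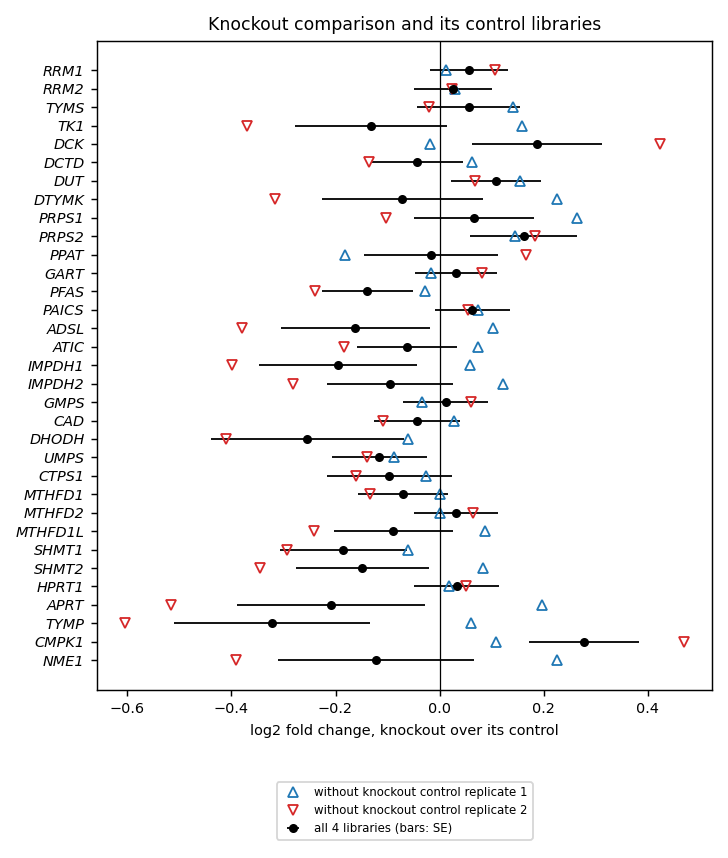
Log2 difference between p53 knockout and its control for each of the 33 members (black points, with bars of 1 standard error), ordered by role, with triangles for the difference after leaving out each control library. The black points lie between -0.32 and 0.28, and the triangles without the second control library reach -0.60 (TYMP) and 0.47 (CMPK1).

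The count of 0 did not hold with the second control library left out. Leaving out a control library leaves 1, which is then assumed to vary like the other groups. Calls from such a fit cannot tell a knockout effect from the difference between the control libraries. With the second control library left out, 12 members were called, 2 higher and 10 lower, beside 30.3% of all genes, a share near that of the members. Among them were CMPK1 at 0.47, APRT at -0.52 and DCK at 0.42. For these genes the first control library differed from the second by -0.37, 0.71 and -0.45 on the log2 scale, in the same order. With the first left out, 0 were called (all genes 0.125%), and 17 of the 33 uncalled differences changed sign, such as TYMP from -0.32 to 0.06. The control libraries differed from each other by up to 0.71 on the log2 scale over the members, and over all genes they differed more than those of any other group (a chi-square of 32.6 per degree of freedom, against 1.54 to 9.57).

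In the knockdown arm, the answer depended on which control the hairpins were set against. With shRNA 1, 8 members were higher and 0 lower than in scramble, beside 9.41% of all genes called (4.4% higher, 5.01% lower), and 2 were higher and 4 lower than in vector, beside 13% (5.78% higher, 7.26% lower). With shRNA 2, 4 were higher and 2 lower than in scramble, beside 7.74% (3.58% higher, 4.15% lower), and 1 was higher and 12 lower than in vector, beside 21% (9.21% higher, 11.7% lower). Between the controls, 1 member was higher and 11 were lower in scramble than in vector, beside 15.3% (7.1% higher, 8.16% lower). Between the hairpins, 7 members were higher and 0 lower with shRNA 1 than with shRNA 2, beside 14.3% (7.07% higher, 7.21% lower).

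Fibroblast markers were also called in these comparisons, for which the shares of all genes called are given above. Of the 8, 5 were higher and 1 lower with shRNA 1 than in vector, 5 higher and 2 lower with shRNA 2 (log2 differences of -1.43 to 3.09), and 4 higher and 1 lower in scramble. Against scramble, 1 was higher and 1 lower with shRNA 1, and 2 were higher and 1 lower with shRNA 2. In the knockout against its control, 1 of the 8 was called higher and 0 lower, beside 0.015% of all genes. There 7 of the 8 differences were above 0 (median 0.35). Their part in the members' differences was not tested.

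The members' median log2 differences were 0.13 for shRNA 1 and -0.07 for shRNA 2 against scramble, -0.06 and -0.19 against vector, -0.26 for scramble against vector, and 0.18 for shRNA 1 against shRNA 2, while the medians of all genes lay between -0.0035 and 0.012. The comparisons share their control libraries, so the values below are given side by side and not as independent evidence. Fitted on the 8 libraries with doxycycline alone, whose spread was smaller (a biological coefficient of variation of 3.08% against 9.55% over all 12), edgeR called 17 members for shRNA 1 (all genes 33.2%) and 13 for shRNA 2 (31.5%) against scramble. Against vector it called 14 (40.7%) and 21 (46.7%), between the controls 21 (42.1%) and between the hairpins 19 (38.8%). Below, called refers to the fit on all 12 libraries unless the 8 are named. Some members not called there were called on the 8 alone.

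**Figure D3:**
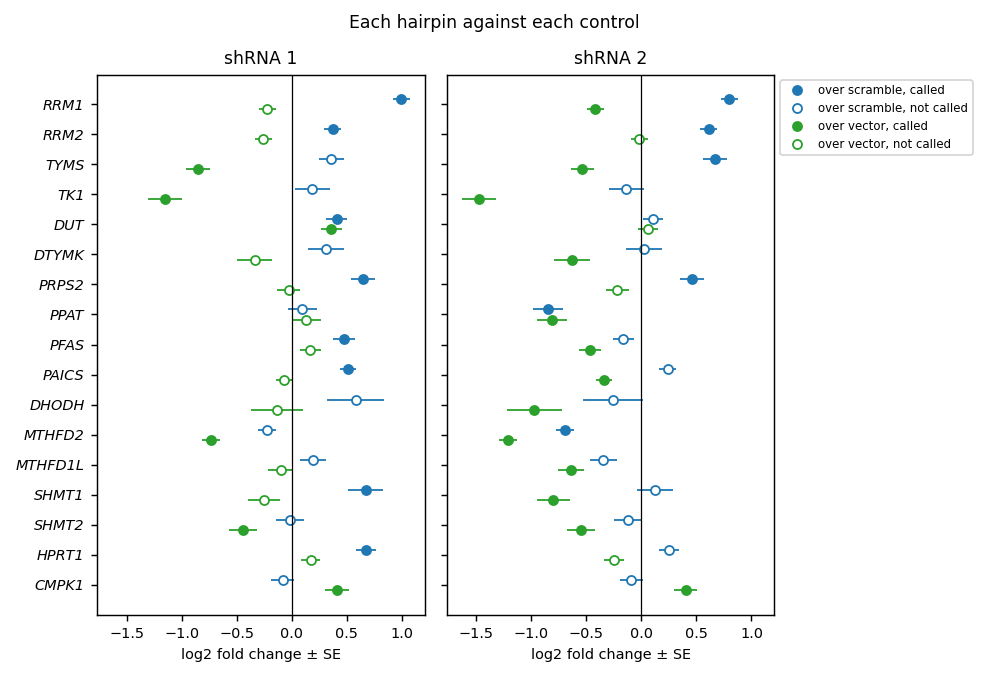
Log2 difference for shRNA 1 (left) and shRNA 2 (right) against scramble (blue) and vector (green), with bars of 1 standard error, filled where called, for the 17 members called in at least 1 of these comparisons. RRM1, RRM2, TYMS, PAICS, PRPS2, SHMT1 and DTYMK lie above 0 against scramble and below 0 against vector with both hairpins. MTHFD2 and SHMT2 lie below 0 in all 4. Some of these points lie within 1 standard error of 0.

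Among the genes of deoxynucleotide supply, scramble was the lowest group and vector the highest for several, with the hairpins between them or near scramble. Of the 8, 3 were higher and 0 lower against scramble with each hairpin, beside 4.4% of all genes higher with shRNA 1 and 3.58% with shRNA 2. Against vector, 1 was higher (all genes 5.78%) and 2 lower (7.26%) with shRNA 1, 4 were lower with shRNA 2 (11.7%), and 5 were lower in scramble (8.16%). The promoter stretches of RRM1 and TYMS are shown because these genes had the widest gap between the controls after TK1, and capitals mark every match to the searched motifs in the 250 bases before the transcription start.
RRM1, GRCh38.p14 chr11:4094435-4094684, plus strand: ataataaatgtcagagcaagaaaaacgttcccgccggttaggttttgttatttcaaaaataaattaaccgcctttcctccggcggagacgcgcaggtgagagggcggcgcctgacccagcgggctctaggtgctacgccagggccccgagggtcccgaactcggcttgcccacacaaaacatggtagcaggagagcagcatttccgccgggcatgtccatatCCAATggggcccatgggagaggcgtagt
TYMS, GRCh38.p14 chr18:657403-657652, plus strand: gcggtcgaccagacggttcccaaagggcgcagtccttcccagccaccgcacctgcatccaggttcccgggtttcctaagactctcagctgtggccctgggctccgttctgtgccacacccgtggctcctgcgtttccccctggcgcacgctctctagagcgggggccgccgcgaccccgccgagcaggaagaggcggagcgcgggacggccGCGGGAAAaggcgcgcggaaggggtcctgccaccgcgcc
Spellings of 4 motif groups were searched on both strands, and no spelling lies within another. The E2F spellings TTTCGCGC, TTTGGCGC, TTTCCCGC and TTTGCCGC were together present in 4 of the members' 45 RefSeq windows (DUT, GART, PRPS2 and TYMS) and in 2.79% of all 35116 windows. CCAAT was present in 20 of 45, over 14 members, and in 32.0% of all windows. The RRM1 window holds 1 CCAAT, and the TYMS window holds 1 E2F spelling on the minus strand, 39 to 32 bases before the start. Such a match is a run of letters and not an observed binding site, and 30 of the 33 members had a window.

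RRM1 was at 91.9 and 99.0 CPM in scramble, 190.2 and 190.5 CPM with shRNA 1, 169 and 163 CPM with shRNA 2, and 221 and 223 CPM in vector. No 2 of these groups overlapped, with scramble lowest and vector highest. Against scramble RRM1 rose by 1.0 on the log2 scale with shRNA 1 (1.99-fold, SE 0.078, adjusted p = 4.3e-05) and by 0.80 with shRNA 2 (1.74-fold, SE 0.078, adjusted p = 1.8e-04). Against vector it fell by 0.42 with shRNA 2 (SE 0.076, adjusted p = 0.0023), and the difference with shRNA 1 was -0.22 (SE 0.076, adjusted p = 0.079). Between the controls RRM1 fell by 1.22 in scramble (SE 0.078, adjusted p = 3.7e-06). RRM1 shares exonic bases with the antisense gene RRM1-AS1, and the strand setting of the counting is not given in the sources used here. Among the members, 10 have such an opposite-strand overlap and 13 have a named pseudogene.

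RRM2 was, like RRM1, higher than scramble with both hairpins. Its levels were 55.4 and 53.8 CPM in scramble, 70.4 and 71.0 CPM with shRNA 1, 86.2 and 80.6 CPM with shRNA 2, and 86.5 and 82.7 CPM in vector. Scramble was lowest, shRNA 1 next, and the libraries of shRNA 2 overlapped those of vector (-0.02, SE 0.077, adjusted p = 0.88). RRM2 rose against scramble by 0.37 with shRNA 1 (SE 0.079, adjusted p = 0.014) and by 0.61 with shRNA 2 (SE 0.079, adjusted p = 9.8e-04), and it fell by 0.63 in scramble against vector (SE 0.078, adjusted p = 2.8e-04). The shRNA 1 call was lost with any 1 of the 4 libraries left out (adjusted p 0.091 to 0.13). RRM2B, the alternative small subunit that is a known p53 target, ranged from 25.5 to 51.8 CPM over the 12 libraries and was called in none of the comparisons.

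TYMS and TK1, the de novo and salvage routes to thymidylate, were both highest in vector within the knockdown arm. TYMS was at 28.9 and 25.4 CPM in scramble, 33.3 and 36.3 CPM with shRNA 1, 43.5 and 42.9 CPM with shRNA 2, and 61.2 and 64.2 CPM in vector. Its 4 groups did not overlap. Against vector TYMS fell by 0.85 with shRNA 1 (SE 0.11, adjusted p = 5.4e-04), by 0.54 with shRNA 2 (SE 0.11, adjusted p = 0.0038) and by 1.21 in scramble (SE 0.11, adjusted p = 3.1e-05). Against scramble it rose by 0.67 with shRNA 2 (SE 0.11, adjusted p = 0.0039, or 0.071 without the second scramble library), and the difference with shRNA 1 was 0.36 (adjusted p = 0.07). TYMS overlaps ENOSF1 and TYMSOS on the opposite strand, which limits its counts in the same way as RRM1.

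TK1 was at 49.0 and 44.8 CPM in scramble, 53.6 and 53.1 CPM with shRNA 1, 41.9 and 43.4 CPM with shRNA 2, and 122 and 116 CPM in vector. Both vector libraries stood at more than the level of any other library of the arm, and the other 3 groups lay between 41.9 and 53.6 CPM. TK1 fell against vector by 1.15 with shRNA 1 (SE 0.16, adjusted p = 7.8e-04), by 1.48 with shRNA 2 (0.359-fold, SE 0.16, adjusted p = 5.7e-05) and by 1.34 in scramble (SE 0.15, adjusted p = 1.7e-04). Against scramble it was not called with either hairpin (0.19 and -0.14, SE 0.16).

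**Figure D4:**
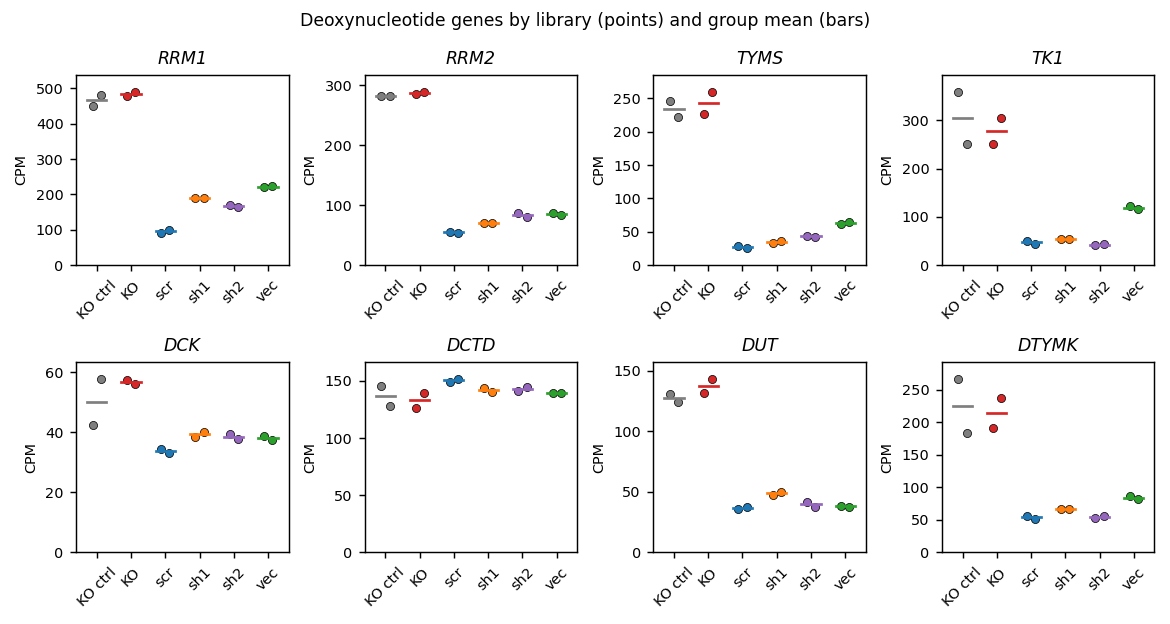
TMM-scaled CPM (linear axis from 0) of genes of deoxynucleotide supply in each of the 12 libraries, with points for libraries and a bar at each group mean (KO ctrl, knockout control; KO, knockout; scr, scramble; sh1 and sh2, the p53 hairpins; vec, vector). In the knockdown arm RRM1 and TYMS are lowest in scramble and highest in vector, and TK1 is high in vector alone within that arm.

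In the fit on all 12 libraries, DUT, the dUTPase that keeps uracil out of DNA, was the only member called in the same direction with shRNA 1 against both controls. It is given by library because of that pattern, after its values were seen. Its levels were 36.3 and 37.3 CPM in scramble, 38.5 and 37.5 CPM in vector, 47.8 and 49.9 CPM with shRNA 1, and 41.6 and 37.8 CPM with shRNA 2. Both shRNA 1 libraries lay above the other 6 of the arm. DUT rose with shRNA 1 by 0.41 against scramble (SE 0.093, adjusted p = 0.019) and by 0.36 against vector (SE 0.092, adjusted p = 0.026), and the 2 controls differed by -0.05 (adjusted p = 0.78). Both calls were lost with any 1 library left out (adjusted p 0.09 to 0.16), and the call against vector also with no filter on low counts (adjusted p = 0.056), and 8 named pseudogenes of DUT could share its reads. DTYMK, thymidylate kinase, fell against vector with shRNA 2 (-0.63, adjusted p = 0.017) and in scramble (-0.65, adjusted p = 0.019), and both calls were lost with any 1 library left out. DCK and DCTD, a nucleoside kinase and a deaminase of deoxycytidine compounds, were called in no comparison within an arm in the fit on all 12 libraries. The 8 libraries with doxycycline were at 33 to 40.1 CPM for DCK and 139 to 152 CPM for DCTD. Fitted with edgeR on these 8 alone, DCK was higher than scramble with shRNA 1 (0.22, adjusted p = 0.029) and shRNA 2 (0.20, adjusted p = 0.048). DCTD was not called in that fit. DTYMK was called lower there than in vector with shRNA 1 (-0.34, adjusted p = 2.8e-05), with shRNA 2 (-0.63, adjusted p = 1.6e-11) and in scramble (-0.66, adjusted p = 5.9e-12). It was also called higher there with shRNA 1 than in scramble or with shRNA 2.

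The de novo purine enzymes did not move together. Of the 11, 3 were higher and 0 lower with shRNA 1 against scramble (all genes called 9.41%), and 1 was higher and 1 lower with shRNA 2 (7.74%). Against vector 0 were called with shRNA 1 (all genes 13%), 3 were lower with shRNA 2 (21%) and 2 were lower in scramble (15.3%). PPAT, which catalyses the committed step, was low with shRNA 2 alone, while PAICS, a later enzyme encoded beside it, was low in scramble. The start sites of PPAT and PAICS face away from each other, and the whole stretch between them is shown because these neighbours did not share a pattern.
PPAT-PAICS, GRCh38.p14 chr4:56435616-56435751, read in the direction of PAICS: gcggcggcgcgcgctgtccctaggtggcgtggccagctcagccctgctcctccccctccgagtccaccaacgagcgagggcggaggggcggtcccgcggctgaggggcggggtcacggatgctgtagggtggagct
These 136 bases hold 0 matches to the 4 motif groups. The 250-base window of PPAT runs past them and holds the E-box spelling CACGTG, 182 to 177 bases before the PPAT start. PPAT was at 23.5 and 24.2 CPM in scramble, 21.2 and 25.2 CPM in vector, 25.3 and 25.7 CPM with shRNA 1, and 13.8 and 12.7 CPM with shRNA 2. Both shRNA 2 libraries lay below the other 6, whose groups lay close together. PPAT shares exonic bases with AC068620.2 on the opposite strand and has 2 named pseudogenes. PPAT fell with shRNA 2 by 0.85 against scramble (0.556-fold, SE 0.14, adjusted p = 0.0041) and by 0.81 against vector (0.57-fold, SE 0.14, adjusted p = 0.0016), and it was 0.94 higher with shRNA 1 than with shRNA 2 (SE 0.14, adjusted p = 0.0015). The call against scramble was lost without the second shRNA 2 library (-0.79, adjusted p = 0.065).

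PAICS was at 76.7 and 77 CPM in scramble, 107 and 112 CPM with shRNA 1, 89.4 and 91.9 CPM with shRNA 2, and 114 and 115 CPM in vector. Its 4 groups did not overlap and kept the order seen for RRM1. PAICS rose by 0.51 with shRNA 1 against scramble (SE 0.075, adjusted p = 0.0020), fell by 0.34 with shRNA 2 against vector (SE 0.074, adjusted p = 0.0073) and fell by 0.58 in scramble against vector (SE 0.075, adjusted p = 3.7e-04). With shRNA 2 against scramble, PAICS differed by 0.24 (SE 0.075, adjusted p = 0.081), where PPAT fell. Fitted with edgeR on the 8 libraries with doxycycline alone, this PAICS difference was called (adjusted p = 6.7e-04). Its fall with shRNA 2 against vector was also called there (adjusted p = 7.4e-07). PAICS was 0.27 higher with shRNA 1 than with shRNA 2 (SE 0.075, adjusted p = 0.032), a call lost with DESeq2 (adjusted p = 0.092), with no filter on low counts (adjusted p = 0.11) and with any 1 library left out (adjusted p 0.11 to 0.19). The PAICS call with shRNA 2 against vector was lost with any 1 library left out (adjusted p 0.051 to 0.077), and PAICS has 7 named pseudogenes that could share its reads.

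PFAS, which makes FGAM earlier in the pathway than PAICS, was at 26.7 and 27.3 CPM in scramble, 37.1 and 37.9 CPM with shRNA 1, 24.5 and 23.8 CPM with shRNA 2, and 33.5 and 33.2 CPM in vector. With shRNA 1 it was the highest of the 4 groups and with shRNA 2 the lowest, with no overlap. PFAS was 0.64 higher with shRNA 1 than with shRNA 2 (SE 0.097, adjusted p = 0.0016). It rose by 0.47 with shRNA 1 against scramble (SE 0.097, adjusted p = 0.011, lost with any 1 library left out) and fell by 0.47 with shRNA 2 against vector (SE 0.096, adjusted p = 0.0051, or 0.056 without the second shRNA 2 library).

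The isozymes of PRPP synthetase, which supplies the activated ribose, differed in their pattern. The PRPS2 promoter is shown for its E2F spelling, in capitals, 12 to 5 bases before the start.
PRPS2, GRCh38.p14 chrX:12791162-12791411, plus strand: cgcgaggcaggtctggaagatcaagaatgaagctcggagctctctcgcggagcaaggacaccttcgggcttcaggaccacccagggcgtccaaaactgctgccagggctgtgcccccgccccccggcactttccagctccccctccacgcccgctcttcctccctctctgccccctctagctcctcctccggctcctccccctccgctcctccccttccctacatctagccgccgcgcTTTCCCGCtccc
PRPS2 was at 21.5 and 23.3 CPM in scramble, 34.7 and 35.4 CPM with shRNA 1, 31.4 and 30.1 CPM with shRNA 2, and 35.7 and 35.8 CPM in vector. Scramble stood apart below the other 3 groups. PRPS2 rose against scramble by 0.65 with shRNA 1 (SE 0.11, adjusted p = 0.0044) and by 0.46 with shRNA 2 (SE 0.11, adjusted p = 0.028), and fell by 0.67 in scramble against vector (SE 0.11, adjusted p = 0.0015). The shRNA 1 call was lost without the first scramble library (0.59, adjusted p = 0.059), and the shRNA 2 call with any 1 library left out (adjusted p 0.12 to 0.21). PRPS1 was at 34.5 to 39.8 CPM in the same 8 libraries and was not called in any of these comparisons (-0.16 to 0.00).

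In the fit on all 12 libraries, the remaining purine genes had 0 calls within the knockdown arm. IMPDH1 and IMPDH2, the isozymes that commit IMP to guanine nucleotides, were at 39.0 to 56.3 CPM and 407 to 478 CPM in its 8 libraries. GMPS, which makes GMP, was at 155 to 189 CPM, GART at 59.6 to 67.4 CPM, ATIC at 67.0 to 79.7 CPM and ADSL at 55.0 to 70.5 CPM. The scramble and vector libraries of these 6 genes differed by -0.41 (IMPDH1) to 0.21 (GMPS) on the log2 scale. Fitted with edgeR on the 8 libraries with doxycycline alone, IMPDH1 was lower than in vector with shRNA 1 (-0.39, adjusted p = 3.6e-05) and in scramble (-0.42, adjusted p = 5.7e-06). In that fit IMPDH1 was called higher with shRNA 2 than in scramble or with shRNA 1. IMPDH2, GMPS, ATIC and ADSL also had calls there, and GART was not called.

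Folate one-carbon enzymes were lower than in vector in the other 3 groups of the arm. For all 5, both libraries lay below both vector libraries with shRNA 1 (34.1% of all genes), with shRNA 2 (36.1%) and in scramble (34.7%). Of the 5, 2 were called lower than in vector with shRNA 1 (all genes 7.26%), 4 with shRNA 2 (11.7%) and 3 in scramble (8.16%). Against scramble, 1 was called lower with shRNA 2 (all genes 4.15%) and 1 higher with shRNA 1 (4.4%). The MTHFD2 promoter is shown because MTHFD2 was called in more comparisons than any other member, 5 of 7, and capitals mark its 2 CCAAT matches.
MTHFD2, GRCh38.p14 chr2:74198365-74198614, plus strand: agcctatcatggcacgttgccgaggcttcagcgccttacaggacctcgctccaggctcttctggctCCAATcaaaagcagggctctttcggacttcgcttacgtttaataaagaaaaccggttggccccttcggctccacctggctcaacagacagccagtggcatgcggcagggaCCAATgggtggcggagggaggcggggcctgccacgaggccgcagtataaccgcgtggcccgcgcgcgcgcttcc
The ATF4-type spelling TGATGNAA was present in 3 of the members' 45 windows, from DCTD and MTHFD1L, and in 3.14% of all windows. The E-box CACGTG was present in 7 of 45, over 6 members, and in 6.34% of all windows. The window of MTHFD2 holds neither spelling.

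MTHFD2, the mitochondrial methylene-tetrahydrofolate dehydrogenase, was at 145 and 147 CPM in scramble, 129.6 and 121 CPM with shRNA 1, 92.5 and 88.1 CPM with shRNA 2, and 214 and 204 CPM in vector. Its groups did not overlap, with shRNA 2 lowest and vector highest. MTHFD2 fell with shRNA 2 by 0.69 against scramble (0.618-fold, SE 0.081, adjusted p = 5.8e-04) and by 1.21 against vector (0.433-fold, SE 0.081, adjusted p = 3.2e-06). With shRNA 1 it fell by 0.74 against vector (SE 0.081, adjusted p = 2.0e-04), and the difference from scramble was -0.22 (SE 0.081, adjusted p = 0.11). Scramble itself was 0.51 below vector (SE 0.080, adjusted p = 0.0013), and shRNA 1 was 0.47 above shRNA 2 (SE 0.082, adjusted p = 0.0031). These 5 calls held with each library left out in turn. Fitted with edgeR on the 8 libraries with doxycycline alone, MTHFD2 was also called lower with shRNA 1 than in scramble (-0.22, adjusted p = 0.0012). MTHFD2 has 7 named pseudogenes and shares exonic bases with SLC4A5 on the opposite strand.

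MTHFD2L, the paralogue of MTHFD2, had 1.06 to 3.19 CPM over the 12 libraries and was called only between the controls, 1.31 higher in scramble (SE 0.28, adjusted p = 0.0087), against the direction of MTHFD2. MTHFD1L, which completes the mitochondrial route to formate, fell with shRNA 2 by 0.64 against vector (SE 0.12, adjusted p = 0.0025). It was 0.54 higher with shRNA 1 than with shRNA 2 (SE 0.12, adjusted p = 0.012), a call lost with any 1 library left out (adjusted p 0.062 to 0.10). MTHFD1L was at 40.8 and 43.2 CPM with shRNA 2, 52.0 to 54.8 CPM in scramble, 59.6 to 62.7 CPM with shRNA 1 and 64.9 to 66.2 CPM in vector. The cytosolic MTHFD1 was not called in any comparison within an arm in the fit on all 12 libraries (64.9 to 81.1 CPM in the knockdown arm). Fitted with edgeR on the 8 libraries with doxycycline alone, MTHFD1 was lower than in vector with shRNA 1 (-0.15, adjusted p = 0.049). It was also lower with shRNA 2 (-0.20, adjusted p = 0.0069) and in scramble (-0.29, adjusted p = 1.5e-04).

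SHMT1 and SHMT2, the cytosolic and mitochondrial serine hydroxymethyltransferases, were both highest in vector within the knockdown arm. SHMT1 was at 7.92 and 6.96 CPM in scramble, 10.6 and 13.2 CPM with shRNA 1, 8.43 and 7.77 CPM with shRNA 2, and 13.7 and 14.5 CPM in vector. The vector libraries were highest, and scramble overlapped shRNA 2. SHMT1 fell against vector by 0.80 with shRNA 2 (SE 0.15, adjusted p = 0.0026) and by 0.92 in scramble (SE 0.15, adjusted p = 0.0016). It rose by 0.67 with shRNA 1 against scramble (SE 0.16, adjusted p = 0.022), and this was lost with 3 of the 4 libraries left out singly (adjusted p up to 0.18). SHMT1 was 0.55 higher with shRNA 1 than with shRNA 2 (SE 0.16, adjusted p = 0.038), a call not made by DESeq2 (adjusted p = 0.067) or limma-voom (adjusted p = 0.055) and lost with any 1 library left out (adjusted p 0.052 to 0.25).

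SHMT2 was at 218 and 208 CPM in scramble, 211 and 209 CPM with shRNA 1, 187 and 205 CPM with shRNA 2, and 288 and 285 CPM in vector. Vector stood above the other 6 libraries, and scramble spanned shRNA 1. SHMT2 fell against vector by 0.45 with shRNA 1 (SE 0.13, adjusted p = 0.042), by 0.55 with shRNA 2 (SE 0.13, adjusted p = 0.010) and by 0.43 in scramble (SE 0.13, adjusted p = 0.043). The shRNA 1 and scramble calls were lost with any 1 library left out (adjusted p 0.15 to 0.23), and the shRNA 2 call with 3 of the 4 (adjusted p up to 0.10). Against scramble the hairpins differed by -0.02 and -0.12 (adjusted p = 0.96 and 0.65). Fitted with edgeR on the 8 libraries with doxycycline alone, SHMT2 was called lower than in vector with both hairpins and in scramble (adjusted p at most 1.2e-10). Neither hairpin was called against scramble in that fit. On the opposite strand, SHMT2 shares exonic bases with NDUFA4L2 and SHMT1 with SMCR8, which limits their counts in the same way as RRM1.

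**Figure D5:**
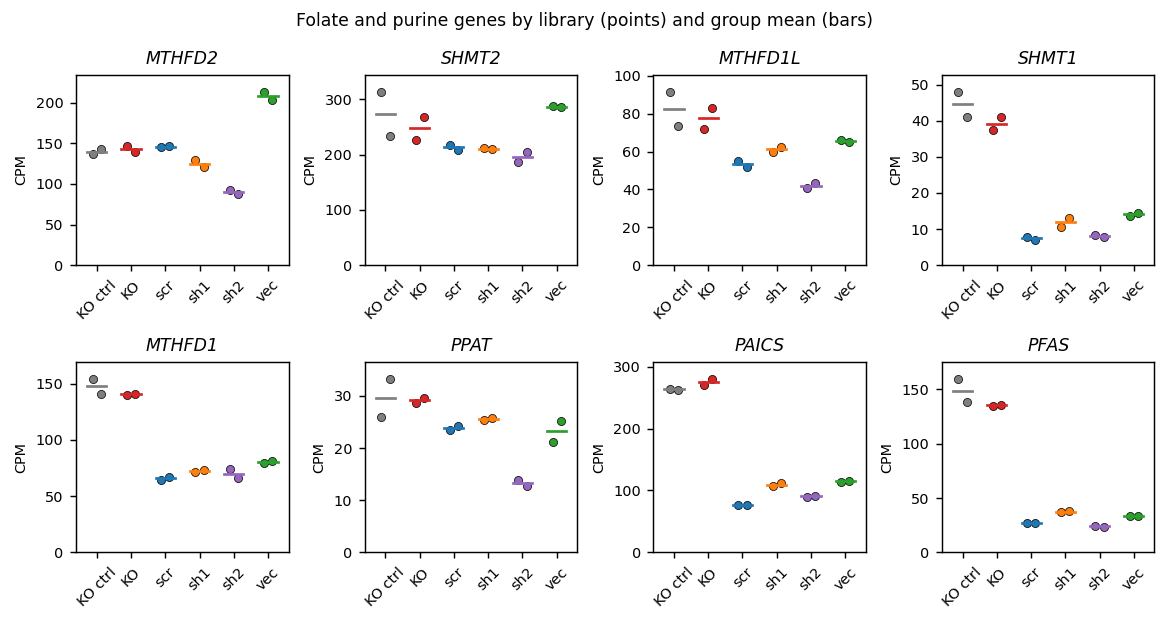
TMM-scaled CPM of folate one-carbon and de novo purine genes in each of the 12 libraries, with points for libraries, a bar at each group mean and groups named as for the deoxynucleotide genes. MTHFD2 and PPAT are lowest with shRNA 2, while PAICS in the knockdown arm is lowest in scramble.

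In the fit on all 12 libraries, the de novo pyrimidine enzymes showed 1 call within the knockdown arm. DHODH, the mitochondrial dihydroorotate dehydrogenase, fell by 0.97 with shRNA 2 against vector (SE 0.25, adjusted p = 0.018), from 7.77 and 5.87 CPM in vector to 3.35 and 3.54 CPM. This call was lost with 3 of the 4 libraries left out singly (adjusted p up to 0.13). DHODH was also 0.71 below vector in scramble, which was not called (SE 0.24, adjusted p = 0.073). With shRNA 2 it differed from scramble by -0.26 (SE 0.27, adjusted p = 0.66). CAD, which carries the early steps on 1 polypeptide, was at 209.8 to 255 CPM in the 8 libraries, and UMPS, which makes UMP, at 18.3 to 23.0 CPM. CTPS1 had 24.7 to 25.5 CPM with shRNA 1 and 16.5 to 20.4 CPM with shRNA 2, which was not called (0.45, SE 0.14, adjusted p = 0.054). Fitted with edgeR on the 8 libraries with doxycycline alone, this CTPS1 difference was called (adjusted p = 0.0013). In that fit CAD was called lower than in vector with both hairpins and in scramble, and UMPS higher with shRNA 2 than in vector. DHODH was called lower there than in vector with shRNA 2 (adjusted p = 1.3e-04) and in scramble (adjusted p = 0.0029). It was also called higher there with shRNA 1 than in scramble or with shRNA 2.

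Among salvage genes and kinases, HPRT1 and CMPK1 were the members with calls in the fit on all 12 libraries. HPRT1, which returns hypoxanthine and guanine to nucleotides, is given by library after its values were seen. It was at 27.8 and 28.5 CPM in scramble, 45.3 and 44.4 CPM with shRNA 1, 35.2 and 31.9 CPM with shRNA 2, and 40.0 and 39.7 CPM in vector. Scramble was lowest and shRNA 1 highest, with no overlap among the 4 groups. HPRT1 rose by 0.67 with shRNA 1 against scramble (SE 0.090, adjusted p = 0.0010) and was 0.42 above shRNA 2 (SE 0.089, adjusted p = 0.0094, lost with 3 of the 4 libraries left out singly), and scramble was 0.50 below vector (SE 0.089, adjusted p = 0.0029).

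CMPK1, the UMP and CMP kinase, ran against most members, with vector as its lowest group of the knockdown arm. It was at 238 and 249.5 CPM in scramble, 229 and 231 CPM with shRNA 1, 233 and 225 CPM with shRNA 2, and 174 and 172 CPM in vector. The 6 libraries with a hairpin construct, scramble included, lay above both vector libraries. CMPK1 rose against vector by 0.41 with shRNA 1 (SE 0.11, adjusted p = 0.026) and by 0.40 with shRNA 2 (SE 0.11, adjusted p = 0.019), and scramble was 0.49 above vector (SE 0.11, adjusted p = 0.0085). Both hairpin calls were lost with any 1 library left out (adjusted p 0.08 to 0.16), and the scramble call with 3 of the 4 (adjusted p up to 0.085). APRT, TYMP and NME1, enzymes of adenine salvage, thymidine breakdown and triphosphate synthesis, had 0 calls within an arm in the fit on all 12 libraries. Fitted with edgeR on the 8 libraries with doxycycline alone, CMPK1 was called higher than in vector with both hairpins and in scramble (adjusted p at most 1.2e-09). In that fit APRT was called lower with shRNA 2 than in scramble, and TYMP was not called. In that fit NME1 was called lower with shRNA 2 than in vector or with shRNA 1. NME1 has a near-identical neighbour, NME2, with which it could share reads.

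The effect of the knockout was then set against the mean effect of both hairpins relative to scramble. Of the 33 members 1 was called, RRM1, at -0.84 (SE 0.10, adjusted p = 0.0033), beside 1.1% of all genes. RRM1 differed by 0.06 in the knockout (SE 0.075, or 0.14 fitted on the 4 libraries without doxycycline alone) and by 1.0 and 0.80 with the hairpins. The call held with each of 10 libraries left out in turn (-0.89 to -0.79), but against vector the hairpin differences in RRM1 were -0.22 and -0.42. With the second knockout control library left out, 14 members were called in this comparison, beside 24.5% of all genes, and with the first left out, 4, beside 5.18%.

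Other genes of the same pathways were taken from lists. Of 44 tested nucleotide genes outside the members, 4 were higher and 3 lower with shRNA 1 against scramble (all genes called 9.41%), and 2 and 1 with shRNA 2 (7.74%). Against vector, 4 were higher and 3 lower with shRNA 1 (all genes 13%), 2 and 6 with shRNA 2 (21%), and 2 and 4 in scramble (15.3%). AK4, a mitochondrial adenylate kinase, was at 26.3 and 27.0 CPM in scramble against 63.3 to 74.4 CPM in the other 6 libraries of the arm. It rose against scramble by 1.34 with shRNA 1 (SE 0.11, adjusted p = 5.4e-05) and by 1.44 with shRNA 2 (SE 0.11, adjusted p = 5.0e-05). NT5E, the ecto-5'-nucleotidase CD73, rose against scramble by 1.0 with shRNA 1 (SE 0.11, adjusted p = 3.8e-04) and by 0.53 with shRNA 2 (SE 0.11, adjusted p = 0.013). Against vector NT5E was 0.58 higher with shRNA 1 (SE 0.11, adjusted p = 0.0054) and was not called higher with shRNA 2.

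Of 18 tested folate genes outside the members, 2 were lower with shRNA 2 against scramble (all genes called 7.74%) and 2 against vector (21%), ALDH1L2 and GGH both times. The same pair was lower with shRNA 1 than in vector (-0.68 for ALDH1L2, adjusted p = 0.028, and -0.37 for GGH, adjusted p = 0.014), and GGH was lower in scramble than in vector (-0.57, adjusted p = 7.6e-04). ALDH1L2, a mitochondrial formyl-tetrahydrofolate dehydrogenase, was at 38.5 and 40.0 CPM with shRNA 2, below the 74.1 to 123 CPM of the other 6 libraries of the arm. It fell with shRNA 2 by 1.18 against scramble (SE 0.18, adjusted p = 0.0030) and by 1.62 against vector (SE 0.18, adjusted p = 9.5e-05). GGH, the lysosomal hydrolase of folate polyglutamates, fell by 0.36 (SE 0.084, adjusted p = 0.025) and by 0.93 (SE 0.083, adjusted p = 1.9e-05).

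Replication genes were followed as a wider list. Of the 24 replication genes, 6 were higher and 0 lower with shRNA 1 against scramble (median 0.43, all genes 4.4% higher and 5.01% lower), and 4 and 0 with shRNA 2 (median 0.19, all genes 3.58% and 4.15%). Against vector, 1 was higher and 6 lower with shRNA 1 (median -0.27, all genes 5.78% and 7.26%), 1 and 14 with shRNA 2 (median -0.40, all genes 9.21% and 11.7%), and 1 and 18 in scramble (median -0.63, all genes 7.1% and 8.16%). Their part in the members' differences was not tested.

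Of 19 serine and ATF4 pathway genes that are not members (ALDH1L2 included), 5 were higher and 0 lower with shRNA 1 against scramble (all genes called 9.41%), and 2 and 3 with shRNA 2 (7.74%). Against vector, 0 were higher and 5 lower with shRNA 1 (median -0.27, all genes 13%), and 2 and 9 with shRNA 2 (median -0.65, all genes 21%). PSAT1, an enzyme of serine synthesis, was at 7.12 and 8.46 CPM with shRNA 2, 14.2 and 14.5 CPM in scramble, 25.9 and 28.9 CPM in vector, and 31.9 and 27.1 CPM with shRNA 1. ASNS, asparagine synthetase, was at 9.001 and 10.003 CPM with shRNA 2 and 19.1 to 40.8 CPM in the other 6 libraries. PSAT1 was 1.92 higher (SE 0.13, adjusted p = 2.1e-05) and ASNS 1.77 higher (SE 0.14, adjusted p = 3.2e-05) with shRNA 1 than with shRNA 2. Scramble against vector gave 1 higher and 12 lower on this list (median -0.54, all genes 15.3%).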

How the data were processed

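The deposited table holds whole-number counts of reads per gene symbol in 12 libraries. Per the labels' protocols, libraries were made from total RNA with a Kapa mRNA Hyper kit, and per the submitters' processing notes the authors used bcl2fastq, STAR 2.5 and hg19. How reads were counted, with which strand setting and on which annotation, is not given in the sources used here. Groups were taken from sample titles. Levels are CPM scaled by TMM factors. Tests used edgeR 4.0.16 in R 4.3.3 (quasi-likelihood F test, 6 groups, 12 libraries, 6 residual degrees of freedom, filterByExpr with a minimum count of 10, Benjamini-Hochberg adjustment over 13365 genes), and the procedure was tested on simulated data. DESeq2 1.42.0, limma 3.58.1 (voom), RLE factors, no filter, the libraries of the same arm only, a replicate block and leaving out each library were the alternatives.

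The members and lists were chosen with earlier results of these data known. The naming rule gave values by library for up to 12 members called in at least 2 comparisons with scramble or vector, by number of comparisons and then smallest adjusted p, named each isozyme pair side by side, and named up to 4 called genes of each other list. Of 145 list entries, 144 matched a symbol, 4 of them through an older symbol. The targeted gene's own transcript and some genes of the lists are not reported here. Promoter windows are RefSeq sequences of GRCh38.p14 matched by symbol, and overlapping genes and pseudogenes were taken by name from GENCODE 29, since a genome of the build used for counting was not used here.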

Additional observations from a re-analysis of the deposited data

Results flagged for a closer look

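RRM1, the large subunit of ribonucleotide reductase, was the member whose knockout effect differed from its knockdown effect when the hairpins were set against scramble. The difference, knockout effect minus the mean effect of both hairpins against scramble, was a log2 value of -0.84 (SE 0.10, adjusted p = 0.0033 over 13365 genes with edgeR). That SE rests on a spread shared by both arms. Fitted on the 4 libraries without doxycycline alone, the knockout difference had an SE of 0.14. RRM1 was at 449.7 and 482 CPM in the knockout control and 479.5 and 489.9 CPM in the knockout, while in the knockdown arm it was at 91.9 and 99.0 CPM in scramble, 190.2 and 190.5 CPM with shRNA 1, 169 and 163 CPM with shRNA 2, and 221 and 223 CPM in vector. Against vector the hairpin differences had the opposite sign (-0.22 and -0.42), so the value depends on the control, and the comparison of effects was not tested with vector as control. The arms also differ in doxycycline and constructs, which cannot be told apart from the kind of p53 loss.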

How the results depend on the processing

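Of 3168 member differences from the alternative settings, 125 changed sign, and 0 of these were called with all libraries or under the alternative. Without the first knockout control library, 17 of the 33 knockout differences changed sign. Refitting on the libraries of the same arm only raised the members called to 17 for shRNA 1 and 13 for shRNA 2 against scramble, 14 and 21 against vector, 21 for scramble against vector and 19 for shRNA 1 against shRNA 2. The shares of all genes called in those fits were 33.2%, 31.5%, 40.7%, 46.7%, 42.1% and 38.8%, in the same order. That fit could not be made for the comparison of effects or for the knockout control against scramble and vector, and it left the knockout at 0. DESeq2 called 3 members, against 1, for the comparison of the knockout with the knockdown effect, beside 234 of all genes, against 147. With 1 library left out, whose partner is then assumed to vary like the other groups, the members called ran from 0 to 12 for the knockout, 3 to 5 for shRNA 1 and 4 to 5 for shRNA 2 against scramble, 3 in every case for shRNA 1 and 8 to 9 for shRNA 2 against vector, 9 to 10 for scramble against vector, 3 to 4 for shRNA 1 against shRNA 2, 1 to 14 for the comparison of effects, and 29 to 31 for the knockout control against scramble and vector. In the comparison of effects, the 4 calls without the first knockout control library and the 14 without the second exceeded the 1 call with all libraries. Of single members' differences, 83 calls were lost and 31 gained over 1452 values from fits with 1 library left out, and 10 lost and 65 gained over 1716 values under the other settings.

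Samples of different groups share replicate numbers, but the labels do not say that a number marks a shared culture or day. Over 15 pairs of groups, the correlation of same-numbered deviations ran from -0.47 to 0.16, and 2 pairs were above 0.1. The value of -0.47 was that of the knockout control with the knockout. With the replicate block, the members called were 0 for the knockout, 8 and 6 against scramble, 5 and 13 against vector, 11 for scramble against vector, 5 for shRNA 1 against shRNA 2, 1 for the comparison of effects and 30 for the knockout control against scramble and vector. Over all genes, the block called 1, 917 and 743, 1339 and 2440, 1717, 1557, 60 and 8833, in the same order. Library totals of 9738094 to 16823246 counts limit the members with few reads, such as DHODH.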

Other observations

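Further genes of the pathway lists carried values not given above. PHGDH, which opens serine synthesis, was at 157 and 157 CPM in scramble, 171 and 181 CPM with shRNA 1, 115 and 120 CPM with shRNA 2, and 316 and 316 CPM in vector, so both vector libraries stood above the other 6. The shRNA 2 libraries were the lowest of the arm. PHGDH fell by 1.01 in scramble against vector (SE 0.15, edgeR adjusted p = 8.4e-04) and by 0.85 with shRNA 1 against vector (SE 0.15, adjusted p = 0.0037). AMPD3, an AMP deaminase, was lowest in vector, at 19.2 and 19.7 CPM, and was 1.19 higher with shRNA 2 (SE 0.11, adjusted p = 3.2e-05) and 1.05 higher in scramble (SE 0.11, adjusted p = 1.2e-04). With shRNA 1 AMPD3 was 0.64 higher than in vector (SE 0.12, adjusted p = 0.0052). SLC19A1, the reduced folate carrier, was at 11 and 10.7 CPM in scramble and 13.3 to 19.9 CPM in the other 6 libraries of the knockdown arm. It rose by 0.71 with shRNA 1 against scramble (SE 0.19, adjusted p = 0.035) and fell by 0.84 in scramble against vector (SE 0.18, adjusted p = 0.0086).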
